A study of Rattus norvegicus with 11 samples.

Results

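The genes described here make and load the peptides that cells show on MHC class I molecules: Tap1, Tap2, Tapbp, Psmb8, Psmb9, Psmb10, Psme1, Psme2, B2m and Nlrc5. They were chosen by gene symbol, with earlier results of these data known. Of these 10 genes, 9 had a probe on the array, with 1 probe each among 30367 probes, which name 16899 genes. Nlrc5 had no probe by symbol or by accession and was not analysed here. With 1 probe a gene, no level could be checked against a second probe of the same gene.

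The proteasome cuts cytosolic proteins into peptides. Cells exposed to interferon exchange its constitutive catalytic subunits Psmb5, Psmb6 and Psmb7 for the immunoproteasome subunits Psmb8, Psmb9 and Psmb10, and Psme1 and Psme2 form an activator that opens the proteasome's ends. Tap1 and Tap2 together form the pump that carries peptides into the endoplasmic reticulum, Tapbp (tapasin) bridges this pump to class I molecules waiting for a peptide, and B2m is the light chain shared by nearly all class I molecules.

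The arrays measured messenger RNA in 11 rat samples, among them cells treated with tumour exosomes, small vesicles released by cells. AS is a pancreatic adenocarcinoma line, and ASTspan8 exosomes come from AS cells that express tetraspanin 8. The recipients were EC, labelled endothelial cells, and RF, labelled endothelial fibroblasts. The RF control array carries a source label that names endothelial cell lines instead. Each recipient was measured untreated (control) and after exosomes of either kind, with 2 arrays of EC after ASTspan8 exosomes and 1 array of each other condition. RNA of ASTspan8 exosomes themselves was measured on 2 arrays, and ASML, another pancreatic adenocarcinoma line, on 1 array as wild type and on 1 array with CD44, an adhesion receptor, knocked down. All lines, controls included, grew in RPMI with serum and with the selection drug G418, per the labels. Exosome dose and treatment time are not given in the sources used here, and the exosome RNA has no array of its donor cells beside it.

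The values are log2 intensities, so a difference of 1 is a 2-fold change. The EC duplicates differed with an SD of 0.144 over the probes kept, and 9 probes were at least 2-fold apart. The exosome duplicates differed with an SD of 0.395, and 358 probes were at least 2-fold apart. EC and RF arrays had 9 to 10 of 12 fibroblast markers above log2 9, 1 to 3 of 12 endothelial markers and 0 of 12 epithelial markers, so the endothelial label had little marker support. Leukocyte and antigen-presenting markers lay above log2 9 for 1 to 3 of 13 genes on every array, and Ptprc, which marks leukocytes, lay between 6.18 and 6.31 on all 11. ASML wild type had 11 of 12 epithelial markers above log2 9, and each exosome RNA array had 1 of 12, Krt19. Tspan8 lay between 6.30 and 6.65 on EC and RF arrays, at 10.28 and 10.16 in exosome RNA and at 13.80 in ASML wild type. In ASML the brightest Cd44 probe read 13.56 in wild type and 12.30 in the knock-down. The 3 other Cd44 probes read 8.28, 7.43 and 6.07 in wild type against 8.79, 8.77 and 5.96 in the knock-down. On the exosome RNA duplicates the brightest Cd44 probe read 6.02 and 11.11.

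The promoters of 6 of the 9 measured genes share a short sequence. These 6 overlap in part with the 7 genes that rose in EC given ASTspan8 exosomes. Tap1, Tap2, Tapbp, Psmb10 and Psme2 are in both sets. Psmb8 and Psmb9 rose and have no match in the 250 bases searched, and B2m has one and did not pass. The match of Tap1 lies between the starts of Tap1 and Psmb9, outside the 250 bases searched for Psmb9. A link between the sequence and the response was not tested. A promoter was taken here as the 250 bases before the start of a gene in the RefSeq annotation of the rat genome (GRCr8), and all 9 measured genes had one. The core of the interferon-stimulated response element, searched on both strands as GAAA, any 2 bases and GAAA again, occurred in 6 of the 9, against 3.41% of 33469 rat promoters. It was found in Tap1, Tap2, Tapbp, Psmb10, Psme2 and B2m, with 2 overlapping copies in Tapbp and 2 separate copies in Psmb10. Psme1 had no match either. A match is a description of the letters and not a measured binding site. The stretches around the cores are shown because these promoters share the element, with the core in capitals, each written 5′ to 3′ on the strand of its gene. In Tap1 the core lies on the opposite strand and therefore reads as its reverse complement.
Tap1, chr20:4668625-4668694, minus strand: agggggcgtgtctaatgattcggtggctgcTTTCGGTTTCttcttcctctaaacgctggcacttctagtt
Tap2, chr20:4652298-4652367, minus strand: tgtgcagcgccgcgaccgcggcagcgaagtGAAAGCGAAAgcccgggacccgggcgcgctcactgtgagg
Tapbp, chr20:4967878-4967933, minus strand: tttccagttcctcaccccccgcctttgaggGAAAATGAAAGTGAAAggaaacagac
Psmb10, chr19:50743293-50743395, minus strand: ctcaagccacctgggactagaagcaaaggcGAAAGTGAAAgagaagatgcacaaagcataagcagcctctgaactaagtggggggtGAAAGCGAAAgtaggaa
Psme2, chr15:33052765-33052834, minus strand: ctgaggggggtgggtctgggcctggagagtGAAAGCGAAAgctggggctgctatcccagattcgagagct
B2m, chr3:129549150-129549219, plus strand: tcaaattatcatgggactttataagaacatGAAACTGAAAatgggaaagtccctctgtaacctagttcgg

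Among other elements searched on both strands, the gamma-activated site TTCNNNGAA occurred in 1 of the 9 promoters (Psmb8) and in 7.67% of all promoters. The element TGACGNNA occurred in 1 (Psmb9) and in 6.15%, and CCAAT in 2 (Psmb8 and B2m) and in 34% of all promoters. Tap1 and Psmb9 start 457 bases apart on chromosome 20 and are read in opposite directions, with 0 protein-coding genes starting between them. Tap2 and Psmb8 start 4735 bases apart on the same chromosome. Psme1 and Psme2 start 13780 bases apart on chromosome 15.

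All 9 genes passed the filter on dim probes, and their probes lay at or above the 67.4th percentile of every array, with log2 levels between 9.18 and 16.42. Duplicate arrays differed by at most 0.14 for these genes in EC and by at most 0.20 in exosome RNA, so 0.20 served as the yardstick for neighbours in the order of the 9 groups.

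**Figure D1:**
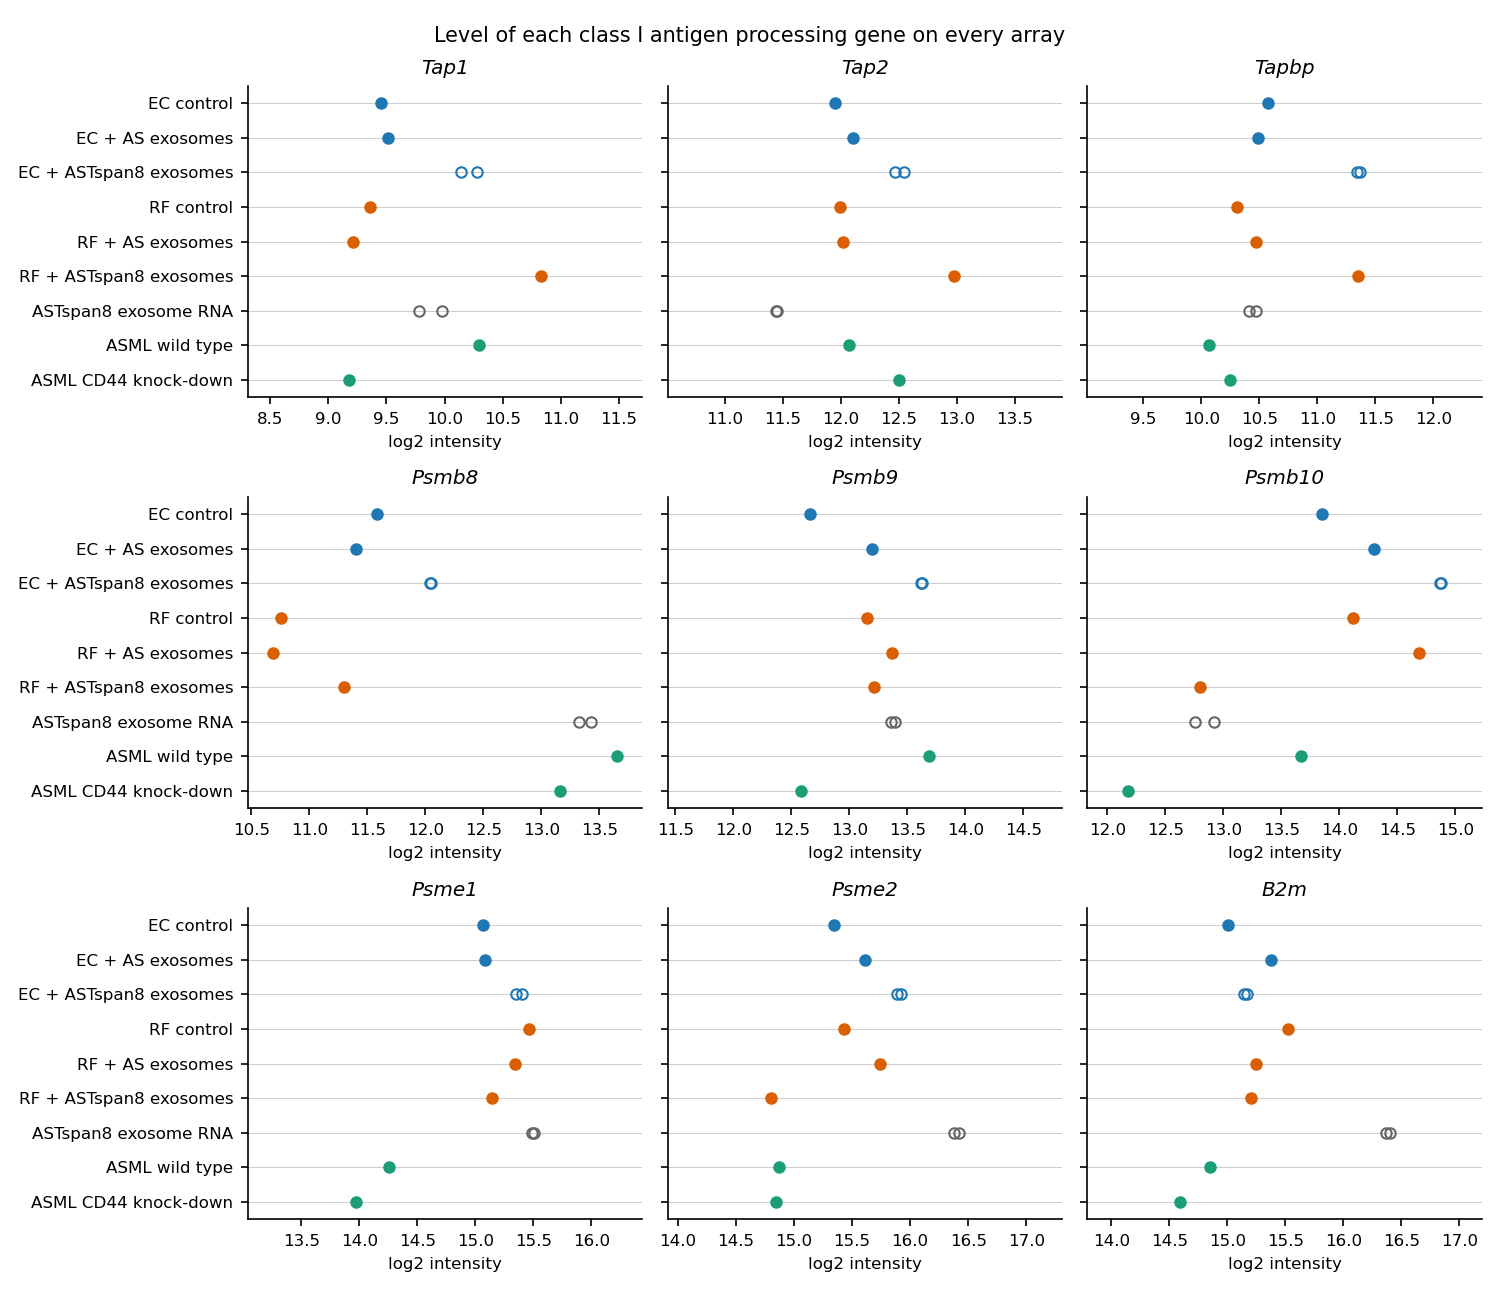
Log2 intensity of each of the 9 genes (x axis, 1 panel a gene, all panels spanning the same log2 width) in the 9 groups (y axis), with 1 point an array and open points for duplicated groups. Tap1 and Tap2 are highest in RF after ASTspan8 exosomes (10.83 and 12.97), and Psme1, Psme2 and B2m in exosome RNA.

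The highest and lowest groups differed between the genes. Tap1 ranged from 10.83 in RF after ASTspan8 exosomes to 9.18 in ASML with CD44 knock-down, and Tap2 from 12.97 in the same RF group to 11.45 in exosome RNA. Tapbp stood at 11.36 in EC and 11.35 in RF after ASTspan8 exosomes, which did not differ beyond the duplicates, and lowest at 10.07 in ASML wild type. These loading genes thus had their highest or near-highest levels in the cells given ASTspan8 exosomes. Psmb8 followed another order, with 13.65 in ASML wild type, 13.38 in exosome RNA and 10.69 in RF after AS exosomes. Psmb9 stood at 13.69 in wild type ASML and 13.62 in EC after ASTspan8 exosomes, a gap within the duplicates, and at 12.58 in ASML with CD44 knock-down. Psmb10 stood at 14.88 in EC after ASTspan8 exosomes and 14.69 in RF after AS exosomes, a gap within the duplicates. It was lowest at 12.18 in ASML with CD44 knock-down. The activator genes and the light chain were highest in exosome RNA, where Psme1 was at 15.50, Psme2 at 16.40 and B2m at 16.38. RF control was within the duplicate gap of exosome RNA for Psme1, at 15.46. The lowest levels were 13.97 for Psme1 and 14.59 for B2m, both in ASML with CD44 knock-down, and 14.80 for Psme2 in RF after ASTspan8 exosomes. For Tap1, Tapbp, Psmb8, Psmb9 and Psme2 the lowest group was within the duplicate gap of the next lowest. Of the 8 gaps between neighbours in each order, between 1 (Tapbp) and 5 (Psmb8) exceeded 0.20.

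In EC, 7 of the 9 genes rose after ASTspan8 exosomes compared with control, by 0.47 to 1.03 log2, and none fell. Over all 18619 probes tested, 12.1% rose and 12% fell at the same threshold, an adjusted p below 0.05 in limma, 24.1% in all. The median difference of the 9 genes was 0.57, against -0.01 over all probes. Both ASTspan8 arrays lay above the control array for 9 of the 9 genes, as they did for 43.4% of all probes. Nothing in the labels says that the duplicates came from separate cultures, so a p-value here reflects array-to-array spread that may be technical. The single control array was assumed to vary like the duplicated groups. In bulk RNA, fewer cells of a type and less RNA per cell cannot be told apart.

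Tap1, a subunit of the peptide pump, read 9.45 in EC control, 9.51 with AS exosomes and 10.28 and 10.14 with ASTspan8 exosomes. Its partner subunit Tap2 read 11.95, 12.10, and 12.46 and 12.54 in the same order. Tapbp, the bridge to class I, read 10.58, 10.49, and 11.34 and 11.37. For all 3 genes both ASTspan8 arrays were above both other EC arrays. Against control Tap1 rose by 0.76 ± 0.13 (SE; limma adjusted p = 0.032), Tap2 by 0.55 ± 0.07 (0.0242) and Tapbp by 0.78 ± 0.07 (0.0181).

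Psmb8, which replaces Psmb5 in the immunoproteasome, read 11.58 in EC control, 11.40 with AS exosomes and 12.05 and 12.04 with ASTspan8 exosomes. Psmb9, which replaces Psmb6, read 12.66, 13.20, and 13.63 and 13.62. Psmb10, which replaces Psmb7, read 13.85, 14.30, and 14.88 and 14.87. For Psmb9 and Psmb10 the AS array lay between the control and the ASTspan8 arrays, whereas for Psmb8 it lay below the control. Against control Psmb8 rose by 0.47 ± 0.08 (limma adjusted p = 0.0344), Psmb9 by 0.97 ± 0.07 (0.0164) and Psmb10 by 1.03 ± 0.10 (0.0181), so that Psmb10 about doubled.

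Psme1, the alpha subunit of the activator, read 15.07 in EC control, 15.08 with AS exosomes and 15.35 and 15.40 with ASTspan8 exosomes. Psme2, the beta subunit, read 15.34, 15.61, and 15.89 and 15.92. The class I light chain B2m read 15.01, 15.38, and 15.14 and 15.17, so that its AS array was the highest of the EC arrays. Psme2 rose by 0.57 ± 0.07 (limma adjusted p = 0.0221). The difference of Psme1 was 0.31 ± 0.07 (0.0538) and that of B2m 0.15 ± 0.07 (0.21), and neither passed.

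The calls depended on the duplicated arrays. Without either one of the ASTspan8 arrays of EC, 0 of the 9 genes and 0 of all probes passed limma's adjusted threshold, while 7 of the 9 had an unadjusted p below 0.05. With no filter on dim probes, 3 of the 9 passed. Fibroblast markers summed to log2 19.31 in EC control and 19.53 and 19.52 after ASTspan8 exosomes, and leukocyte markers to 12.36 against 12.20 and 12.23. Their part in the result was not tested.

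**Figure D2:**
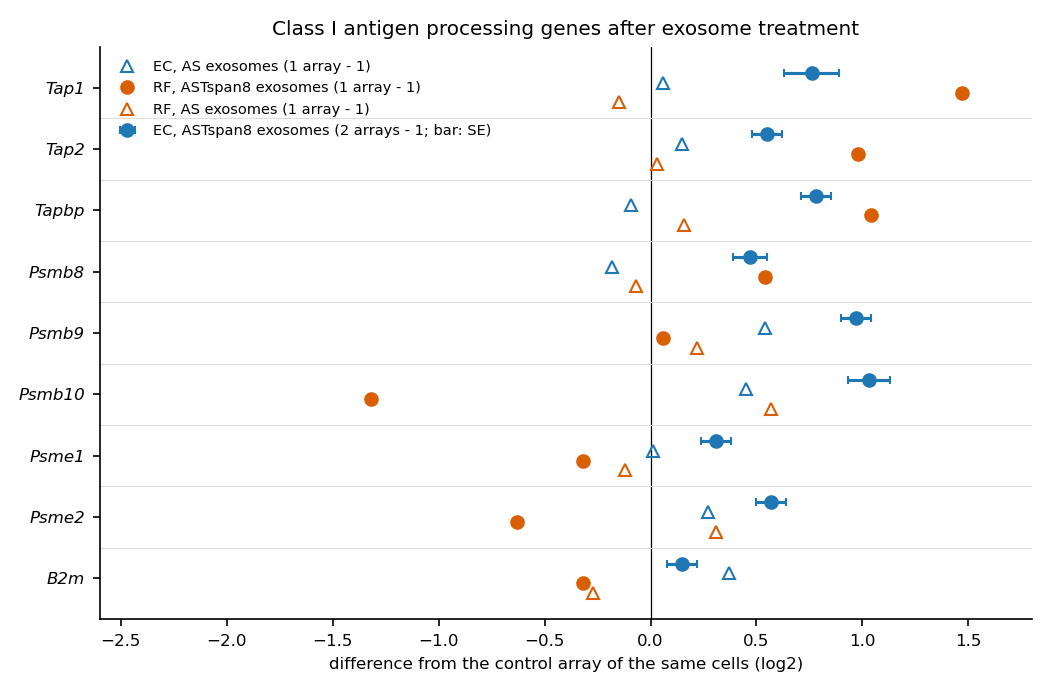
Difference in log2 intensity from the control array of the same cells (x axis) for each gene (y axis), in EC (blue) and RF (orange) after ASTspan8 exosomes (filled circles) and AS exosomes (open triangles). The bar is the SE of the limma fit for EC after ASTspan8 exosomes, and the other points are 1 array minus 1 array. Psmb10 lies at 1.03 in EC and -1.32 in RF after ASTspan8 exosomes.

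Against EC after AS exosomes, which shares the ASTspan8 arrays with the comparison above, 6 of the 9 genes were higher after ASTspan8 exosomes, against 7.54% of all probes (14.9% in either direction). These were the 3 transport and loading genes and the 3 immunoproteasome genes. Tapbp was higher by 0.87 ± 0.07 (limma adjusted p = 0.0254), Tap1 by 0.70 ± 0.13 (0.0478) and Psmb8 by 0.65 ± 0.08 (0.0313). Psmb10 differed by 0.58 ± 0.10 (0.0427), Psmb9 by 0.43 ± 0.07 (0.0391) and Tap2 by 0.40 ± 0.07 (0.0492). Psme1 and Psme2 each differed by 0.30 ± 0.07 (0.0699 and 0.0692) and B2m by -0.23 ± 0.07 (0.108), and these did not pass. Each of the 4 fits without one duplicated array gave 0 of 9 in limma, and 0 of all probes, with 6 to 9 genes at an unadjusted p below 0.05. A fit of the 4 EC arrays alone also gave 0 of 9, with 9 at an unadjusted p below 0.05. The call for Tap2 was also lost with quantile normalization (0.0524) and median centring (0.0557), and that for Tap1 with quantile normalization (0.0535).

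AS exosomes in EC were measured on 1 array against 1, so these differences have no replicate check. None of the 9 genes was 2-fold apart, as were 1.12% of all probes. The differences from control were 0.54 for Psmb9, 0.45 for Psmb10, 0.37 for B2m and 0.27 for Psme2. The other 5 lay between -0.18 (Psmb8) and 0.15 (Tap2). In RF the AS array was likewise less than 2-fold from control for all 9 genes, against 2.16% of all probes apart by that much. Psmb10 differed by 0.57 in RF, Psme2 by 0.31 and B2m by -0.27. B2m was therefore higher than control in EC and lower in RF.

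In RF, ASTspan8 exosomes split the set, on 1 array against 1 and with no replicate check. The loading genes and Psmb8 were higher than control, Psmb9 was close to it, and Psmb10, the activator and the light chain were lower. Tap1 read 9.36 in RF control, 9.21 with AS exosomes and 10.83 with ASTspan8 exosomes. Tap2 read 11.99, 12.02 and 12.97, and Tapbp read 10.31, 10.47 and 11.35. For these 3 genes the AS array lay within 0.20 of control, and the ASTspan8 array was higher by 1.47 for Tap1 (2.77-fold), 0.98 for Tap2 and 1.04 for Tapbp (2.06-fold).

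Psmb8 read 10.76 in RF control, 10.69 with AS exosomes and 11.30 with ASTspan8 exosomes, a difference from control of 0.54. Psmb9 read 13.15, 13.37 and 13.21, a difference of 0.06. Psmb10 read 14.12, 14.69 and 12.80, a difference of -1.32 from control and of -1.89 from the AS array. The immunoproteasome subunits therefore ran in different directions in RF. Psme1 read 15.46, 15.34 and 15.14, and Psme2 read 15.43, 15.74 and 14.80. B2m read 15.52, 15.25 and 15.20. The differences from control were -0.32 for Psme1, -0.63 for Psme2 and -0.32 for B2m.

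Of the 9 genes, 2 were at least 2-fold higher (Tap1 and Tapbp) in RF after ASTspan8 exosomes, against 4.64% of probes, and 1 at least 2-fold lower (Psmb10), against 4.53%, or 9.17% in either direction. Against the AS array of RF, 2 of 9 were at least 2-fold apart, Tap1 at 1.62 and Psmb10 at -1.89, against 9.87% of probes. At 1.5-fold, 5 genes were apart from control, against 27.8% of probes, and 6 from the AS array, against 26.8%. On this RF array the 12 fibroblast markers summed to log2 18.06, against 19.40 in RF control and 19.10 after AS exosomes, and 10 of 12 were above log2 9. Leukocyte markers summed to 12.36, against 12.52 and 12.18. The part of the fibroblast marker shift in these differences was not tested.

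Whether EC and RF responded differently to ASTspan8 exosomes was tested in the fit of all arrays, with single RF arrays assumed to vary like the duplicates. It passed for 5 of the 9 genes, all with the higher difference in EC, against 15.9% of all probes in that direction and 31.5% in either. Psmb10 differed by 2.35 ± 0.15 log2 (limma adjusted p = 0.0089), Psme2 by 1.20 ± 0.11 (0.0104) and Psmb9 by 0.91 ± 0.10 (0.0127). Psme1 differed by 0.63 ± 0.11 (0.0248) and B2m by 0.47 ± 0.10 (0.0437). Tap1 and Tap2 had the larger difference in RF, with -0.71 ± 0.19 (0.0669) and -0.43 ± 0.11 (0.0624), and did not pass. Tapbp gave -0.27 (0.155) and Psmb8 -0.08 (0.705). Without either one of the ASTspan8 arrays of EC, 0 of 9 passed in limma and 5 had an unadjusted p below 0.05, and with no filter 3 passed.

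Over EC and RF together, in a fit with terms for cell and treatment on 7 arrays, 0 of the 9 genes passed for ASTspan8 exosomes against control, as did 0.00537% of all probes. In this limma fit 5 genes had an unadjusted p below 0.05. Tap1 differed by 1.03 ± 0.24 (adjusted p = 0.205), Tapbp by 0.89 ± 0.13 (0.201) and Psmb10 by 0.09 ± 0.60 (0.956). The wide error of Psmb10 goes with its opposite values in the 2 cell types. For AS exosomes against control 0 of 9 passed, with 0 at an unadjusted p below 0.05 in limma, and for ASTspan8 against AS exosomes 0 of 9, with 4. In both, 0% of all probes passed. Between EC and RF over the treatments, 1 of 9 passed, against 8.52% of all probes (5.09% higher in EC). Psmb8 was higher in EC by 0.76 ± 0.10 (adjusted p = 0.0172). Without either one of the ASTspan8 arrays of EC, that count was 0, and 1 gene had an unadjusted p below 0.05 in limma.

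Each immunoproteasome gene was set beside the constitutive subunit that it replaces, and only differences were compared, since levels of different probes are not on 1 scale. In EC after ASTspan8 exosomes Psmb5 rose by 0.55 ± 0.07 (limma adjusted p = 0.0212), beside 0.47 for Psmb8. Psmb6 differed by 0.01 (0.96) and Psmb7 by -0.22 (0.164), beside rises of 0.97 for Psmb9 and 1.03 for Psmb10. Thus Psmb9 and Psmb10 stood above their counterparts, and Psmb8 did not. In RF after ASTspan8 exosomes the values were 0.54 for Psmb8 and -0.20 for Psmb5, 0.06 for Psmb9 and 0.33 for Psmb6, and -1.32 for Psmb10 and -0.64 for Psmb7. The differences within a pair were not tested.

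**Figure D3:**
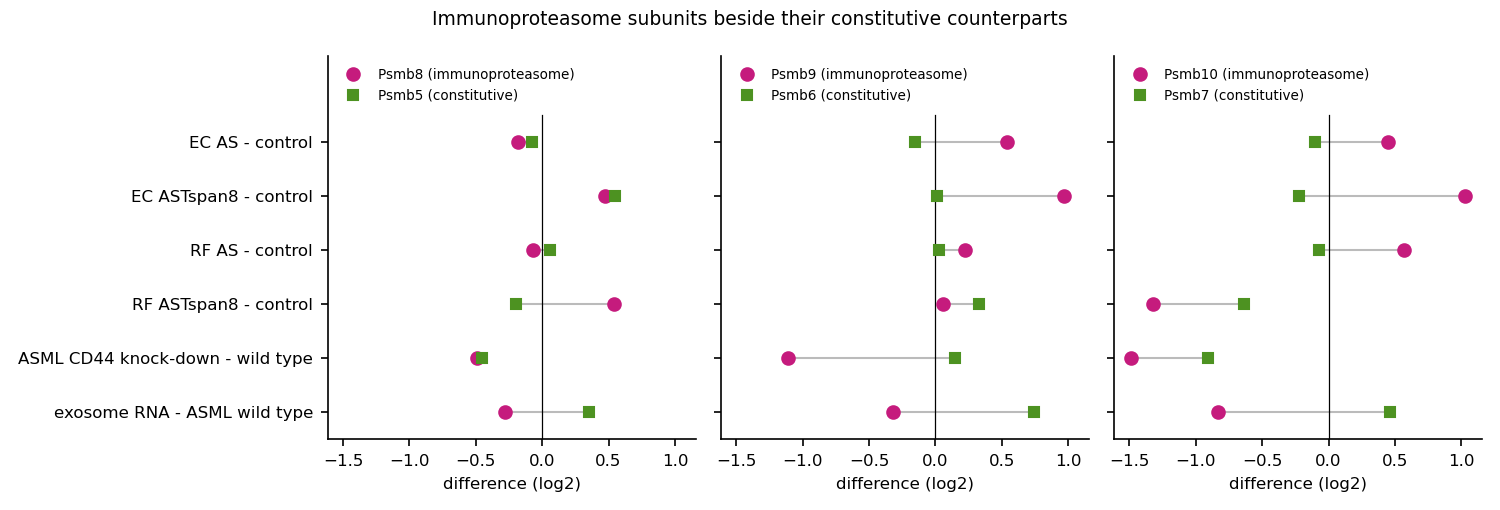
Difference in log2 intensity (x axis) of each immunoproteasome subunit (circles) and of the constitutive subunit it replaces (squares) in 6 comparisons (y axis), joined by a line. In EC after ASTspan8 exosomes Psmb9 lies at 0.97 and Psmb6 at 0.01, and Psmb10 at 1.03 and Psmb7 at -0.22, while Psmb8 (0.47) and Psmb5 (0.55) lie side by side.

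Class I heavy chains carry the peptide on the surface, and in the rat they belong to the RT1 family. The list held 36 heavy chain and class I-like genes, of which 28 passed the filter on dim probes. Many RT1 genes are near-identical copies, so a probe may read several of them, the genes are not independent, and which copy changed is uncertain. In EC after ASTspan8 exosomes 5 of 28 rose against control and 0 fell, where 12.1% of all probes rose and 12% fell, with a median of 0.26. RT1-M3-1, a class Ib heavy chain whose mouse counterpart presents formylated peptides, rose by 0.71 ± 0.08 (limma adjusted p = 0.0216), and RT1-T24-4 by 0.57 ± 0.12 (0.0471). RT1-CE10 rose by 0.42 ± 0.08 (0.0373) and RT1-CE3 by 0.37 ± 0.08 (0.0476). Like all other probes, none of these passed without either one of the ASTspan8 arrays of EC.

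Against AS exosomes 18 of 28 were higher in EC after ASTspan8 exosomes and 0 lower, against 7.54% of all probes higher, with a median of 0.60. None passed in the fits without one duplicated array. The AS array itself read below control for 24 of the 28 genes and above it for 3, with a median of -0.32, against 45.5% of all probes below. RF gave a like order on 1 array each: the AS array read below control for 25 of 28, with a median of -0.58, against 49.6% of probes. The RF array after ASTspan8 exosomes read above control for 23 of 28, with a median of 0.54, against 52.1% of probes. Against the RF array after AS exosomes 16 of 28 were at least 2-fold higher, against 4.3% of probes, among them RT1-CE4 by 1.51 and RT1-CE16 by 1.41. The light chain gene B2m read otherwise, with 0.37 in EC and -0.27 in RF after AS exosomes, and -0.32 in RF after ASTspan8 exosomes. Heavy chain probes may share sequence, which could not be checked here. These counts therefore describe the probes and were not given a test as a group.

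**Figure D4:**
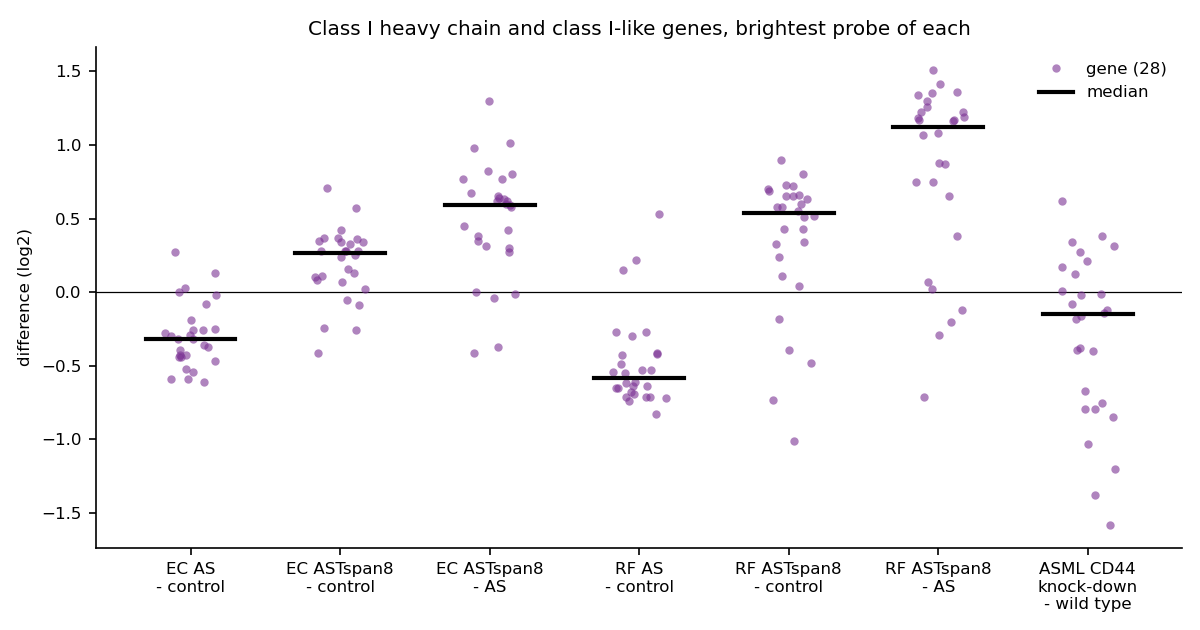
Difference in log2 intensity (y axis) of 28 class I heavy chain and class I-like genes in 7 comparisons (x axis), with 1 point a gene and a bar at the median. Medians are -0.32 and -0.58 after AS exosomes against control in EC and RF, 0.26 and 0.54 after ASTspan8 exosomes against control, and 0.60 and 1.12 for ASTspan8 against AS exosomes.

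Other steps of the pathway were read from lists. Of 12 peptide loading and trimming genes, 3 rose in EC after ASTspan8 exosomes and 0 fell, with a median of 0.15, a share called near the 24.1% of all probes. Calr, a chaperone of the loading complex, rose by 0.74 ± 0.12 (limma adjusted p = 0.0307), and the peptidases Lnpep and Thop1 by 0.91 ± 0.15 (0.0299) and 0.61 ± 0.07 (0.02). Calr read 12.59 in EC control and 13.41 and 13.25 after ASTspan8 exosomes, but 12.33 in RF control and 11.49 in RF after ASTspan8 exosomes. Its response differed between EC and RF by 1.58 ± 0.18 (0.0133), in the same direction as that of Psmb10. Of these 12 genes, 4 in all had the higher response in EC, Erap1 (0.87) and Pdia3 (0.70) among them, and 1 in RF, Hspa5 (-1.49), where 31.5% of all probes passed in either direction and 15.9% with the higher response in EC. Of 34 constitutive proteasome genes, 3 rose and 5 fell in EC after ASTspan8 exosomes, with a median of 0.04, again a share called near 24.1%. These calls, too, were lost without either one of the ASTspan8 arrays of EC.

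Of 25 genes of interferon-gamma signalling and class I regulation, 18 were measured above the filter, of which 3 rose and 3 fell in EC after ASTspan8 exosomes, with a median of -0.11. Both counts were near the shares of all probes, 12.1% higher and 12% lower. Irf7, an interferon-induced transcription factor, rose by 1.71 ± 0.08 (limma adjusted p = 0.0146), Stat2, a signal transducer of type I interferon, by 1.24 ± 0.07 (0.0146) and Irf1, a factor that acts on class I promoters, by 0.54 ± 0.09 (0.0302). Jak1, a kinase of interferon receptors, fell by 0.49 ± 0.07 (0.026). Irf7 read 11.07 in RF control, 10.71 with AS exosomes and 12.64 with ASTspan8 exosomes, and Stat2 read 11.97, 12.20 and 13.14. For both genes the RF differences from control, 1.57 and 1.17, were near those in EC, and the difference between EC and RF did not pass (adjusted p = 0.472 and 0.663). The interferon-gamma receptor chain Ifngr2 read 12.36 in EC control and 11.86 and 11.94 after ASTspan8 exosomes. It read 11.67 in RF control and 13.26 in RF after ASTspan8 exosomes. Its response differed between EC and RF by -2.05 ± 0.12 (limma adjusted p = 0.0089). Of the 18 genes, 1 passed this test with the higher response in EC and 4 with the higher response in RF. Over all probes, 31.5% passed in either direction. Among ubiquitin-like modifier genes 3 of 4 passed the filter, and all 3 rose in EC, as did 12.1% of all probes: Isg15 by 2.55, Usp18 by 1.40 and Ube2l6 by 0.60. In RF, on 1 array against 1, they differed from control by 1.01, 2.84 and -0.85 in the same order. The difference between EC and RF passed for all 3, as for 31.5% of all probes. It was 1.54 for Isg15 (limma adjusted p = 0.00914), -1.44 for Usp18 (0.0371) and 1.45 for Ube2l6 (0.0099). The EC calls of both lists were lost without either one of the ASTspan8 arrays of EC. So were the differences between EC and RF for Ifngr2, Isg15, Usp18 and Ube2l6.

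In ASML, CD44 knock-down was compared with wild type on 1 array each, with no replicate check. Of the 9 genes, 3 were at least 2-fold lower in the knock-down, Tap1, Psmb9 and Psmb10, against 9.39% of all probes. Tap1 read 10.30 in wild type and 9.18 in the knock-down, a difference of -1.12. Psmb9 read 13.69 and 12.58, a difference of -1.11, and Psmb10 read 13.67 and 12.18, a difference of -1.49. Psmb8 was lower by a smaller amount, with 13.65 and 13.16. Tap2 read 12.07 and 12.50 and Tapbp 10.07 and 10.25, so both were higher in the knock-down. Psme1 read 14.26 and 13.97, Psme2 14.87 and 14.84, and B2m 14.85 and 14.59.

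The neighbours Tap1 and Psmb9 thus differed by nearly the same amount in ASML, -1.12 and -1.11. They also rose together in EC after ASTspan8 exosomes, by 0.76 and 0.97, but stood at 1.47 and 0.06 in RF. The neighbours Tap2 and Psmb8 stood at 0.43 and -0.49 in ASML, and Psme1 and Psme2 at -0.29 and -0.03. In the same ASML comparison Psmb7, the counterpart of Psmb10, differed by -0.91 and Psmb6, the counterpart of Psmb9, by 0.15. Irf1 read 13.12 in wild type and 11.95 in the knock-down. Ciita, the activator of class II genes, read 9.95 and 6.42, and Cd74, the class II invariant chain, 12.43 and 9.50. Epithelial markers summed to log2 18.33 in wild type and 16.90 in the knock-down, with 12 of 12 lower in the knock-down. Fibroblast markers summed to 13.97 and 16.77, a sum carried by S100a4, which read 12.52 and 16.59, while the median of the 12 was 6.55 and 6.39. The part of these marker differences in the result was not tested.

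Exosome RNA was set against ASML wild type cells, which differ from it in line as well as in kind of RNA, so line and compartment cannot be told apart. Of the 9 genes 8 passed, 4 higher and 4 lower in exosome RNA, where 65.6% of all probes passed, 28.1% higher and 37.5% lower. Psme1 read 15.49 and 15.51 in exosome RNA, against 14.26 in ASML, Psme2 16.38 and 16.42 against 14.87, and B2m 16.37 and 16.40 against 14.85. The activator and light chain genes were thus above ASML, by 1.24 ± 0.07 (limma adjusted p = 0.000662), 1.53 ± 0.07 (0.000435) and 1.54 ± 0.07 (0.000422). The immunoproteasome genes lay below ASML, with Psmb8 at 13.43 and 13.32 against 13.65, Psmb9 at 13.36 and 13.39 against 13.69, and Psmb10 at 12.92 and 12.76 against 13.67. Psmb10 was lower by the most, with -0.83 ± 0.10 (0.00379), beside -0.32 for Psmb9 (0.0196) and -0.28 for Psmb8 (0.0482).

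Tap2 read 11.45 and 11.44 in exosome RNA against 12.07 in ASML, a difference of -0.63 (limma adjusted p = 0.004). Tapbp read 10.47 and 10.41 against 10.07, a difference of 0.37 (0.0153). Tap1 read 9.98 and 9.78 against 10.30, a difference of -0.42 (0.0504) that did not pass. Psmb5, Psmb6 and Psmb7 were higher in exosome RNA by 0.35, 0.74 and 0.46, the opposite direction to the subunits that replace them. Without either one of the ASTspan8 arrays of EC, which carry part of the spread estimate, 5 of the 9 genes passed. The call for Psmb8 was also lost with quantile normalization (0.109), median centring (0.0803) and no filter (0.101), and that for Psmb9 with quantile normalization (0.052) and no filter (0.0515).

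Over the 9 groups the genes did not share 1 profile. The 36 pairs of genes had a median Pearson r of 0.104, from -0.652 (Tap2 and Psme2) to 0.795 (Psme2 and B2m), with 23 pairs above 0. Psme1 correlated with B2m at 0.737 and with Psme2 at 0.725, and Tapbp with Tap2 at 0.622 and with Tap1 at 0.604. These describe 9 points that share arrays and treatments. The mean profile of the 9 genes, each centred on its own mean, was highest at 0.43 in EC after ASTspan8 exosomes and 0.28 in exosome RNA, and lowest at -0.43 in ASML with CD44 knock-down.

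Among 5687 other genes, those with the profile most like this mean over 9 groups were Rbmx (r = 0.911), Rhoc (0.88), Tgm2 (0.854), RT1-T24-4 (0.837) and Oasl2 (0.821). Over the 7 EC and RF arrays alone the closest were Usp2 (0.983), Pla2g2c (0.975), Apol9a (0.974), Trim42 (0.973) and Serpinb7 (0.973), of 1697 ranked. The lists shared 0 of 5 genes.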

How the data were processed

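Gene expression was measured in 11 rat samples on 1-colour Agilent arrays, with total RNA extracted with Trizol, per the labels' protocols. The deposited values are linear intensities that the authors had put on a common scale across arrays. The methods of background correction, normalization and probe summary are not given in the sources used here. Array medians lay between 156.5 and 165.4, and all arrays had the same maximum, 422913.

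Of 30367 probes, 20369 had 1 gene symbol in the platform annotation, updated through the RefSeq table of GRCr8. Values were floored at the 1st percentile (62.25), which raised 0.816% of them, and log2 transformed. Probes with a mean within-array percentile above 50 in at least 1 of 9 groups were kept, 18619 in all. Differences were fitted with limma 3.58.1 in R 4.3.3 (lmFit, eBayes), over all kept probes, with Benjamini-Hochberg adjustment at 0.05. The fit of all 11 arrays had 2 residual degrees of freedom and the additive fit of 7 EC and RF arrays had 3. The script was tested on simulated data. Comparisons of 1 array with 1 were counted at 2-fold, with no test. The number of arrays limits the precision.

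A gene with several probes was read by its brightest. All members were named, and from each of 5 lists up to 4 genes that passed (or were at least 2-fold apart) by size of difference. Genes given as checks or counterparts (Tspan8, Cd44, marker genes, Psmb5, Psmb6 and Psmb7) were not chosen by this rule. Genes most like the mean profile over the 9 groups had an SD of at least 0.5 over the group means. For the ranking on the 7 EC and RF arrays, the SD was taken over those arrays. The members and lists were chosen with earlier results of these data known. Motifs were searched in RefSeq promoter sequences of GRCr8. Tables and plots were made with Python 3.11.15, pandas 2.3.3 and matplotlib 3.10.9. Alternatives were other normalizations, filters, floors, eBayes settings, sets of arrays and fold thresholds.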

Additional observations from a re-analysis of the deposited data

Results flagged for a closer look

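Responses that differed between EC and RF were flagged among these genes. For ASTspan8 exosomes against control, the difference between EC and RF passed the limma test for Psmb10 (2.35 log2, adjusted p = 0.0089), Psme2 (1.20, 0.0104), Psmb9 (0.91, 0.0127), Psme1 (0.63, 0.0248) and B2m (0.47, 0.0437). All 5 had the higher difference in EC, on 2 arrays after ASTspan8 exosomes in EC and 1 in RF. Over all probes 31.5% passed this test in either direction and 15.9% with the higher difference in EC. The calls depended on the duplicated arrays, as described above.

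Opposite directions in EC and RF were also seen in differences whose contrast between the cells was not tested. For ASTspan8 against AS exosomes Psmb10 stood at 0.58 in EC and -1.89 in RF, and Psme2 at 0.30 and -0.94. Psme1 stood at 0.30 and -0.20 and Psmb9 at 0.43 and -0.16. For AS exosomes against control B2m stood at 0.37 in EC and -0.27 in RF.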

How the results depend on the processing

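The number of the 9 genes that passed in limma depended on the arrays, the filter and, in some comparisons, the normalization. For EC after ASTspan8 exosomes against control (7 genes), no filter on dim probes gave 3, and leaving out 1 duplicated array gave 0 to 7. Against AS exosomes (6 genes), no filter gave 0, the 4 EC arrays alone gave 0, and every fit without 1 duplicated array gave 0, while quantile normalization gave 4 and median centring 5. For exosome RNA against ASML (8 genes) leaving out 1 array gave 5 to 9, quantile normalization and no filter gave 6 each, and median centring 7. For the difference between EC and RF (5 genes) no filter gave 3 and leaving out 1 array gave 0 to 5. For EC against RF (1 gene) leaving out 1 ASTspan8 array gave 0. At 1.5-fold the RF array after ASTspan8 exosomes had 5 genes apart from control (3 at 2-fold), against 27.8% of all probes, and 6 from the AS array (2 at 2-fold), against 26.8%. Directions turned for differences that had not passed: B2m in EC was -0.04 against the mean of the control and AS arrays, a setting chosen after seeing the data. Over EC and RF together, ASTspan8 exosomes against control gave -0.15 for Psmb10 without either EC ASTspan8 array, 0.00 (just below 0) for Psme1 with quantile normalization, -0.02 to 0.01 for Psme1 and -0.04 to -0.03 for Psme2 without one or the other of these arrays. The cause of these shifts was not tested. No paired analysis was possible because no groups that were compared with each other share 2 replicate numbers. With 1 array in 7 of 9 groups, and 2 residual degrees of freedom, small differences could not be resolved.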

Other observations

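Some class I genes did not follow the other heavy chains in RF. After ASTspan8 exosomes, RT1-M3-1 read 11.19 against 11.92 in RF control, while it rose in EC, and the difference between EC and RF was 1.44 ± 0.13 (limma adjusted p = 0.0105), a call lost without either one of the ASTspan8 arrays of EC. Cd1d1, which presents lipids, read 8.26 against 9.27 in RF control, a difference of -1.01, the only one of 28 genes at least 2-fold apart there. In exosome RNA Cd1d1 read 11.36 and 11.28, against 6.12 in ASML wild type, near the floor of 5.96. Of the 28 genes, 4 read at least 2-fold lower in ASML with CD44 knock-down than in wild type, against 9.39% of probes. Among them RT1-M3-1 differed by -1.58 and RT1-T24-4 by -1.38, on 1 array each. The median of the 28 was -0.15, with 19 lower and 9 higher by any amount.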
